A study of Mus musculus with 6 samples.

Results

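The 10 genes described here encode transcription regulators of the pro-B to pre-B transition, measured in sorted bone marrow pro-B cells that lacked, or kept, the RNA helicase gene Skiv2l. The genes were Spib, Spi1, Irf4, Irf8, Ikzf1, Ikzf3, Bach2, Bcl6, Pou2af1 and Gfi1. They were chosen by gene name, and all 10 were found, each on 1 of the 54752 gene identifiers in the tables. All mice were adult C57BL/6 animals with floxed Skiv2l (Skiv2lfl/fl). In 3 of them Cd79a-Cre was also present (Skiv2l-deleted), and for the other 3 no Cre is labelled (control). The labels give neither sort markers nor sex. Each mouse gave 1 library. Cd79a encodes a chain of the B cell receptor complex, so the driver acts within the B lineage. Since Cre is named for the Skiv2l-deleted mice alone, effects of Cre and of Skiv2l loss cannot be told apart. Levels are in FPKM, fragment counts scaled to transcript length and to library size.

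A developing B cell first joins its heavy chain gene segments as a pro-B cell, then signals through the pre-B cell receptor and begins to rearrange its light chain genes. The ETS factors PU.1 (gene Spi1) and SPI-B (Spib) bind composite DNA sites together with the interferon regulatory factors IRF4 and IRF8, including sites in light chain enhancers. Ikaros (Ikzf1) and Aiolos (Ikzf3) are zinc finger factors that shut off surrogate light chain genes and slow division after the pre-B receptor has signalled. BACH2 and BCL6 are repressors that act at the checkpoint around pre-B receptor selection, POU2AF1 is the B cell coactivator of octamer-binding POU factors, and GFI1 is a repressor shared by lymphoid and myeloid progenitors.

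Skiv2l itself had 9.53, 16.15 and 10.9 FPKM in Skiv2l-deleted mice 1, 2 and 3, against 25.4, 20.2 and 46.3 FPKM in control libraries 1, 2 and 3, and the groups did not overlap. Its log2 fold change was −1.21 ± 0.32 (SE, limma adjusted p = 0.063), just short of the threshold of 0.05 for the p-value adjusted over all genes tested. Whether the deleted part of the gene lies within the counted transcript is not stated. Aligned bases came to 1.74 to 2.40 Gb per library. Pro-B markers were present in every library: the lowest value of the 12 listed genes was 3.28 FPKM (Kit in control 2). All 12, among them Pax5 and Rag1, passed the expression filter of 1 FPKM in at least 3 libraries. Of these, 6 were called higher (Dntt, Igll1, Vpreb1, Kit, Rag1 and Rag2) and 1 lower, Cd79a, the gene that names the Cre driver. Over all genes tested 4.97% were called higher and 3.87% lower. Cd79a had 367, 368 and 441 FPKM in Skiv2l-deleted libraries, against 726, 640 and 739 FPKM in controls (log2 fold change −0.84 ± 0.12 SE, limma adjusted p = 0.0123), a call lost without Skiv2l-deleted 1 or control 1 (highest limma adjusted p = 0.0702). Rag1 and Rag2 were called in 1 of 6 omissions of a library, that of control 3 (highest 0.182 for both). A pair of libraries, Skiv2l-deleted 2 and control 3, stood apart on the second principal component (33.1% of the variance). The granule genes Mpo, Elane, Prtn3 and Ctsg, which mark granulocyte precursors, summed to 17.6, 1538 and 10.4 FPKM in the Skiv2l-deleted libraries and to 19.9, 19.1 and 794 FPKM in the controls. Results below are therefore also given without Skiv2l-deleted 2 and control 3. Other myeloid markers were not all confined to that pair. Ngp had 49.64, 29.71 and 0.1556 FPKM in Skiv2l-deleted libraries and 0.2212, 58.31 and 25.16 FPKM in controls. S100a9 had 165, 242.9 and 1.983 FPKM in Skiv2l-deleted libraries and 1.499, 217.5 and 177.2 FPKM in controls. S100a8 and Camp were likewise low in Skiv2l-deleted 3 and control 1 alone. Lyz2, Csf1r, Itgam and Cd14 were highest in the pair. In bulk libraries, fewer cells of a type and less RNA per cell cannot be told apart.

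All 10 genes passed the filter, as did 13539 genes in all. With all 6 libraries, 1 of the 10, Spib, was called, and it fell (limma adjusted p under 0.05), and 0 were called higher. Over all genes tested 8.84% were called, 3.87% lower and 4.97% higher. The log2 fold change was below 0 in 8 of the 10 genes and above 0 in Irf8 and Gfi1, with a median of −0.52. Over all tested genes the median was 0.06, and 42.2% were below 0. The groups did not overlap for 5 of the 10 genes, against 32.2% of all tested genes. Skiv2l-deleted was the lower group for 4 of these (Spib, Irf4, Ikzf1 and Bach2), against 12.3% of all tested genes, and the higher group for Gfi1, against 19.9%.

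Without control 3 alone, 6 of the 10 were called lower and 0 higher, where 13.1% of all genes tested were called, 5.47% lower and 7.65% higher. Without Skiv2l-deleted 2 and control 3 the same fit called 7 of the 10 lower and 0 higher, where 13% of all genes tested were called, 5.73% lower and 7.3% higher. The 7 genes called without the pair of libraries were Spib, Bach2, Irf4, Ikzf3, Ikzf1, Spi1 and Pou2af1, and all but Spi1 were called without control 3 alone. Control 3 was the lowest control for each of those 6 genes. Leaving it out therefore had to enlarge their differences, and the added calls are no separate support. Skiv2l-deleted 2 and control 3 were themselves chosen because they stood apart in these data. A term for these 2 libraries in the fit of all 6, chosen after seeing the data, called 4 of the 10 lower (Spib, Bach2, Irf4 and Ikzf1), where 19.4% of all genes were called, 7.6% lower and 11.8% higher.

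**Figure D1:**
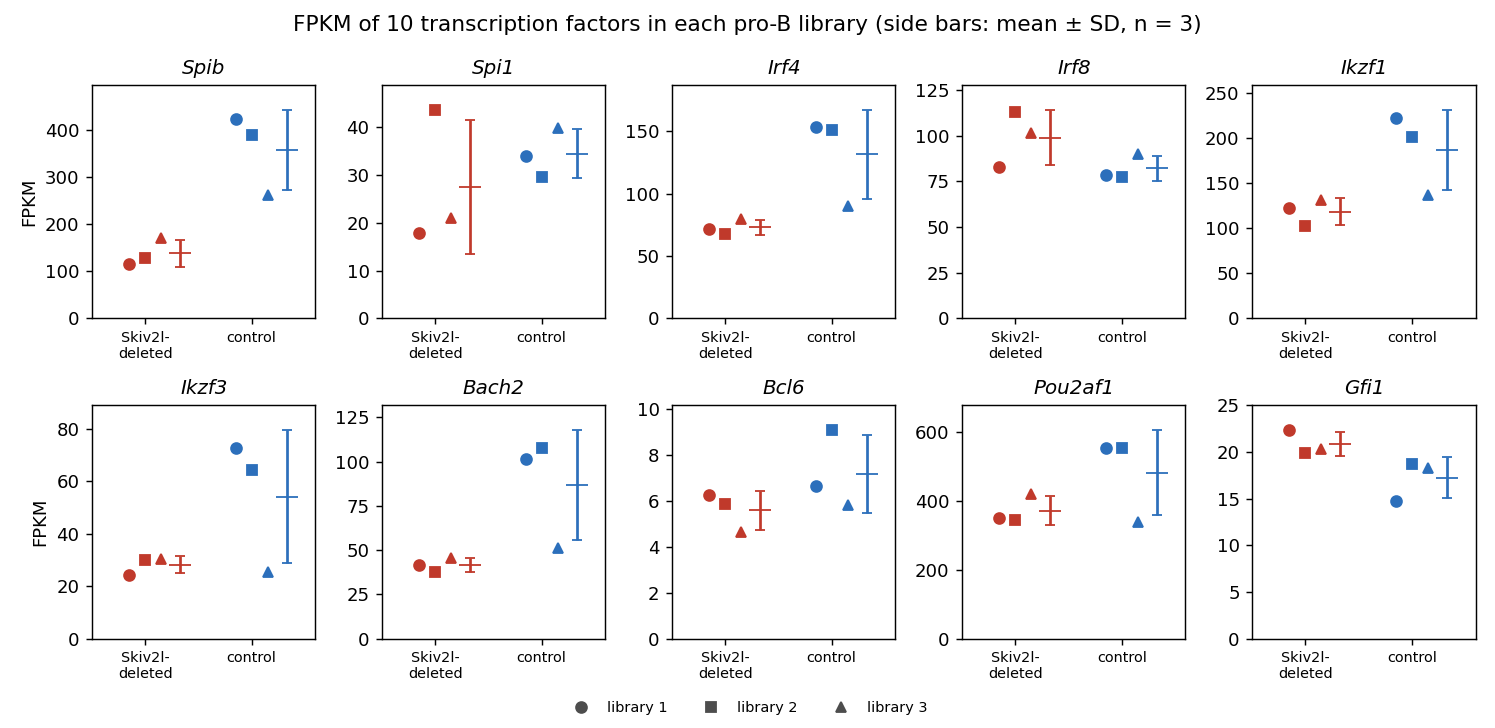
FPKM (vertical axes, each from 0) of the 10 genes in 3 Skiv2l-deleted and 3 control pro-B libraries. Points are single libraries, with the symbol giving the library number, and the bars beside them are the mean ± SD (n = 3). Control 3 sits far below controls 1 and 2 for Spib, Irf4, Ikzf1, Ikzf3, Bach2 and Pou2af1.

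Spib, the SPI-B gene, lies on chromosome 7 (44525993 to 44532071, minus strand, GRCm38). Its level was 116.5, 129 and 171 FPKM in Skiv2l-deleted cells of mice 1, 2 and 3, against 422, 388.5 and 262 FPKM in control cells. The highest Skiv2l-deleted library was well below the lowest control, which was control 3. On average Spib reached 139 ± 28.4 FPKM in Skiv2l-deleted cells and 357.5 ± 84.8 FPKM in control cells (SD, n = 3 each), a ratio of 0.388. The log2 fold change was −1.35 ± 0.22 (SE, 95% interval −1.87 to −0.83, limma adjusted p = 0.016). The exact two-sided permutation p was 0.1, the smallest that 3 against 3 libraries allow. The call was lost without Skiv2l-deleted 1 (limma adjusted p = 0.0737), without control 1 (0.0616) and without control 2 (0.0584). It was also lost with no expression filter (0.065) and with a replicate block (0.0618), each at the same log2 fold change. The fall was also present within each set of libraries: Skiv2l-deleted 1 and 3 averaged 144 FPKM, against 406 FPKM in controls 1 and 2, and Skiv2l-deleted 2 had 129 FPKM, against 262 FPKM in control 3. By mean level Spib ranked 579 of 13539 tested genes in Skiv2l-deleted cells and 181 in control cells.

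The start site window of Spib is shown because it is the member called with all libraries. It holds 250 bases before the RefSeq start, chromosome 7 from 44532072 to 44532321 on the minus strand of GRCm38.p6, and overlaps no annotated exon.
Spib: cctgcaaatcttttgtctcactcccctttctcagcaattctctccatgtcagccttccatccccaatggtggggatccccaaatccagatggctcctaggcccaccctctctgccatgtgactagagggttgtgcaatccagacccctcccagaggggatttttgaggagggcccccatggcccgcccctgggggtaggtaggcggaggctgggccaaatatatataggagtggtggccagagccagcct
The window was searched on both strands, together with the 50 bases after the start, for the octamer ATTTGCAT, the PU box core GAGGAA, the ETS-IRF composite (GGAA and GAAA, 2 bases apart), the Ikaros core TGGGAA and the E-box CAGGTG. Matching letters would be in capitals, and 0 of the 5 motifs were found in this window. The same windows of all 32851 RefSeq starts held them in 1.74% (octamer), 28.3% (PU box core), 2.72% (composite), 25.6% (Ikaros core) and 20.2% (E-box).

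Spi1, which encodes PU.1, is the close relative of Spib and is strongly expressed in myeloid cells. It had 18.0, 43.6 and 21.1 FPKM in the Skiv2l-deleted libraries and 33.9, 29.6 and 39.9 FPKM in the controls. The groups overlapped through Skiv2l-deleted 2, the highest of all 6, and Spi1 was not called (log2 fold change −0.41 ± 0.31 SE, limma adjusted p = 0.479). Skiv2l-deleted 2 and control 3, the libraries with the high sums of Mpo, Elane, Prtn3 and Ctsg, were also the highest in Spi1. The whole list of 12 myeloid markers summed to 402, 2869 and 87.3 FPKM in the Skiv2l-deleted libraries and 137, 498 and 1602 FPKM in the controls. Without Skiv2l-deleted 2 and control 3, Spi1 averaged 19.5 FPKM in Skiv2l-deleted cells and 31.8 FPKM in control cells, and it fell by 0.68 on the log2 scale (limma adjusted p = 0.0327). Between the left-out libraries, Skiv2l-deleted 2 was at 1.09 times the level of control 3, so the sign was opposite there. The part of myeloid RNA in the Spi1 values was not tested.

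The ratio of Spib to Spi1 within a library was 6.49, 2.95 and 8.11 in the Skiv2l-deleted libraries and 12.45, 13.1 and 6.56 in the controls. The groups overlapped through control 3. Both genes summed to 134, 172 and 192 FPKM in Skiv2l-deleted libraries and to 456, 418 and 301.5 FPKM in controls. The sums did not overlap, and Spib made up most of the sum in every library. Plasmacytoid dendritic cells express Spib and Irf8. Of 12 markers of those cells, 5 stayed under 1 FPKM in all 6 libraries, and the defining surface gene Siglech stood at 0.137, 6.09 and 0.316 FPKM in Skiv2l-deleted libraries and at 1.04, 0.782 and 0.736 FPKM in controls. The 12 markers summed to 137, 195.5 and 162 FPKM in the Skiv2l-deleted libraries and 79.6, 92.0 and 109 FPKM in the controls. Bst2 and Tcf4 made up most of the sum in every library. Siglech was lower in Skiv2l-deleted 1 and 3 than in any control, and highest in Skiv2l-deleted 2. Siglech did not pass the filter. Of the 5 tested markers, Bst2, Tcf4, Irf7 and Cox6a2 had every Skiv2l-deleted library above every control, as did 19.9% of all tested genes. Il3ra overlapped, and 1 marker, Cox6a2, was called higher. The part of these cells in the Spib result was not tested.

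**Figure D2:**
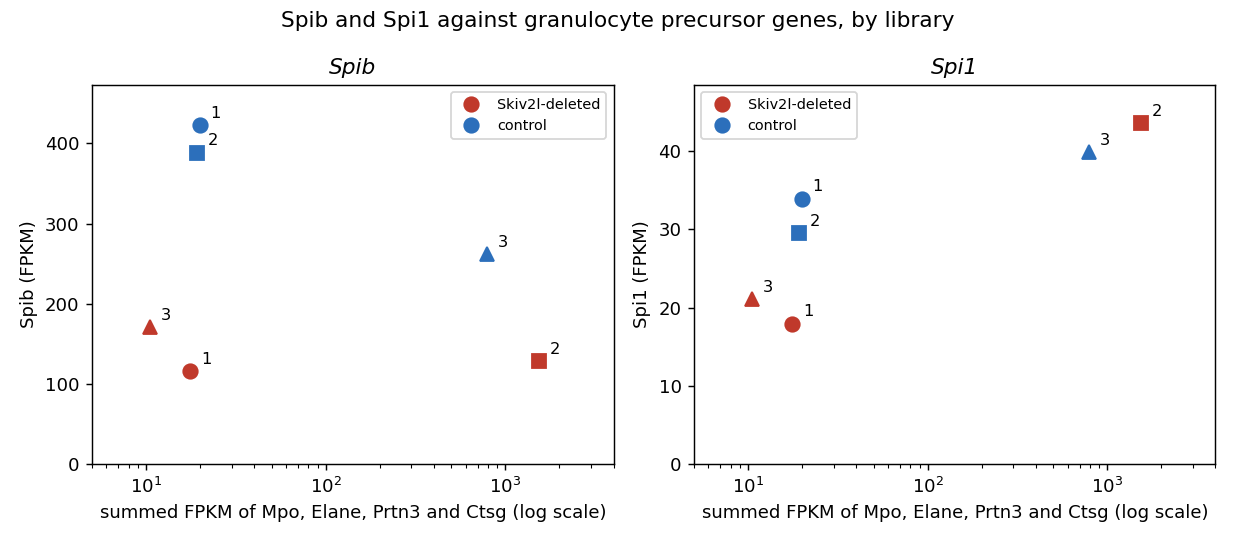
Spib (left) and Spi1 (right) in FPKM against the summed FPKM of 4 granulocyte precursor genes on a log axis. Each point is 1 library with its number, Skiv2l-deleted in red and control in blue. Skiv2l-deleted 2 and control 3 have sums of 1538 and 794 FPKM and the highest Spi1, while Spib is separated by genotype on both sides of the plot.

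Irf4 lies on chromosome 13 (30749226 to 30766976, plus strand, GRCm38) and encodes the IRF that pairs with PU.1 or SPI-B at light chain enhancers. It had 72.1, 67.9 and 79.7 FPKM in Skiv2l-deleted libraries and 153, 151 and 90.4 FPKM in controls. The Skiv2l-deleted libraries were close to each other and all lower, while control 3 lay nearer to them than to controls 1 and 2. The log2 fold change was −0.80 ± 0.21 (SE, limma adjusted p = 0.0636) with all 6 libraries and −0.995 ± 0.091 (limma adjusted p = 0.0102) without Skiv2l-deleted 2 and control 3. Leaving out control 3 alone gave −1.05 (limma adjusted p = 0.00633). Skiv2l-deleted 2 held 0.751 of the level in control 3, where Skiv2l-deleted 1 and 3 held 0.499 of the level in controls 1 and 2.

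The upstream window of Irf4 is shown beside that of Spib because both genes were lower in each Skiv2l-deleted library. It covers chromosome 13 from 30748983 to 30749225 on the plus strand of GRCm38.p6, up to the first annotated exon, and capitals mark a PU box core on the opposite strand.
Irf4: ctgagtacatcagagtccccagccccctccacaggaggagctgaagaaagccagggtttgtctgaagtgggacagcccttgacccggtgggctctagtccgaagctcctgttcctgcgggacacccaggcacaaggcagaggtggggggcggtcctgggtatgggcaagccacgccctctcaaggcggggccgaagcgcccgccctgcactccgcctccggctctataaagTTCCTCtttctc
Its match begins 19 bases before the RefSeq start, and 28.3% of all windows hold that motif. Ikzf1 was also lower in each Skiv2l-deleted library, and its windows, not shown, held 0 matches.

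Irf8 encodes the sister factor of IRF4. It stood at 82.7, 113 and 101 FPKM in Skiv2l-deleted cells and at 78.7, 77.2 and 90.1 FPKM in controls. The groups overlapped, and Irf8 was not called (log2 fold change 0.26 ± 0.14 SE, 95% interval −0.07 to 0.59, limma adjusted p = 0.308). The Irf4 to Irf8 ratio was 0.872, 0.603 and 0.788 in Skiv2l-deleted libraries and 1.95, 1.96 and 1.003 in controls, with no overlap. Irf4 thus stood below Irf8 in all 3 Skiv2l-deleted libraries and above it in all 3 controls, by the least in control 3 (90.4 and 90.1 FPKM). The sum of both genes was 155, 181 and 181 FPKM in the Skiv2l-deleted libraries, against 232, 228 and 180.5 FPKM in the controls.

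Ikzf1, the Ikaros gene on chromosome 11 (11685003 to 11772926), had 122, 102 and 131 FPKM in Skiv2l-deleted libraries and 222, 201 and 137 FPKM in controls. All Skiv2l-deleted libraries were lower, Skiv2l-deleted 3 by a narrow margin against control 3. The log2 fold change was −0.63 ± 0.20 (SE, limma adjusted p = 0.0986), and −0.73 ± 0.10 (limma adjusted p = 0.0155) without Skiv2l-deleted 2 and control 3. Ikzf3, the Aiolos gene on the same chromosome (98464902 to 98546031), had 24.4, 30.0 and 30.2 FPKM in Skiv2l-deleted libraries and 72.85, 64.35 and 25.3 FPKM in controls. Control 3 lay among the Skiv2l-deleted libraries, so the groups overlapped and the gene was not called with all 6 (log2 fold change −0.79 ± 0.37 SE, limma adjusted p = 0.243). Without Skiv2l-deleted 2 and control 3, Ikzf3 fell by 1.30 on the log2 scale (limma adjusted p = 0.0112). Within that pair alone, Skiv2l-deleted 2 was at 1.185 times the level of control 3, so the sets of libraries had opposite signs for Ikzf3, a difference that was not tested. The sum of Ikzf1 and Ikzf3 was 146, 132 and 162 FPKM in the Skiv2l-deleted libraries and 295, 265 and 162 FPKM in the controls.

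Bach2, on chromosome 4 (32238804 to 32586108), encodes a repressor of the plasma cell program. It had 41.8, 37.6 and 45.8 FPKM in Skiv2l-deleted libraries and 101, 108 and 51.2 FPKM in controls. All Skiv2l-deleted libraries were lower, with control 3 close above them. The log2 fold change was −0.97 ± 0.28 (SE, limma adjusted p = 0.0762), and −1.24 ± 0.09 (limma adjusted p = 0.00774) without Skiv2l-deleted 2 and control 3. With strand use in counting not given in the sources used here, reads of Bach2 may overlap those of Bach2it1 (at most 5.11 FPKM) and of the antisense gene Bach2os (at most 0.84 FPKM).

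The window of Bach2 is shown because it holds 1 of the 2 ETS-IRF composites among the members. It covers 250 bases before the RefSeq start, chromosome 4 from 32417185 to 32417434 on the plus strand of GRCm38.p6, which lies inside the annotated gene but in no exon. The composite, in capitals, is on the opposite strand.
Bach2: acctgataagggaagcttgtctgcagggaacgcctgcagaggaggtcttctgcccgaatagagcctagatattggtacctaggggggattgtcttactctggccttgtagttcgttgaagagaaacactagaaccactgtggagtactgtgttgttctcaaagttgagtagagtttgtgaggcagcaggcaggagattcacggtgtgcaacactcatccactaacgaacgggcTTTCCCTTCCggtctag
The other composite was in 1 of the windows of Bcl6. In all, 12 windows of 8 members were matched in RefSeq, and 8 of these held at least 1 of the 5 motifs. The share of all RefSeq windows with at least 1 of the 5 was not counted. The PU box core alone was in 28.3% of them, the Ikaros core in 25.6% and the composite in 2.72%. Without the joint share, the count of 8 in 12 cannot be read as an excess or as none. Spi1 and Ikzf3 were not matched.

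Bcl6 was the lowest of the 10 genes, at 6.29, 5.86 and 4.66 FPKM in Skiv2l-deleted libraries and 6.66, 9.10 and 5.83 FPKM in controls. The groups overlapped and the gene was not called (log2 fold change −0.30 ± 0.19 SE, limma adjusted p = 0.379). Skiv2l-deleted 1 and 3 held 0.695 of the Bcl6 level in controls 1 and 2, and Skiv2l-deleted 2 held 1.01 of that in control 3. Pou2af1 was the highest, at 351, 343 and 421 FPKM in Skiv2l-deleted libraries and 551.5, 553 and 339 FPKM in controls. Control 3 was the lowest of all 6, and the gene was not called with all libraries (log2 fold change −0.34 ± 0.21 SE, limma adjusted p = 0.37). Without Skiv2l-deleted 2 and control 3 it fell by 0.52 on the log2 scale (limma adjusted p = 0.045), while Skiv2l-deleted 2 held 1.01 of the level in control 3. Gfi1 stood at 22.3, 19.9 and 20.4 FPKM in Skiv2l-deleted libraries, against 14.7, 18.7 and 18.3 FPKM in controls. Each Skiv2l-deleted library was above each control, but the log2 fold change of 0.27 ± 0.13 (SE) was not called (limma adjusted p = 0.255), nor was it without Skiv2l-deleted 2 and control 3 (0.178).

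**Figure D3:**
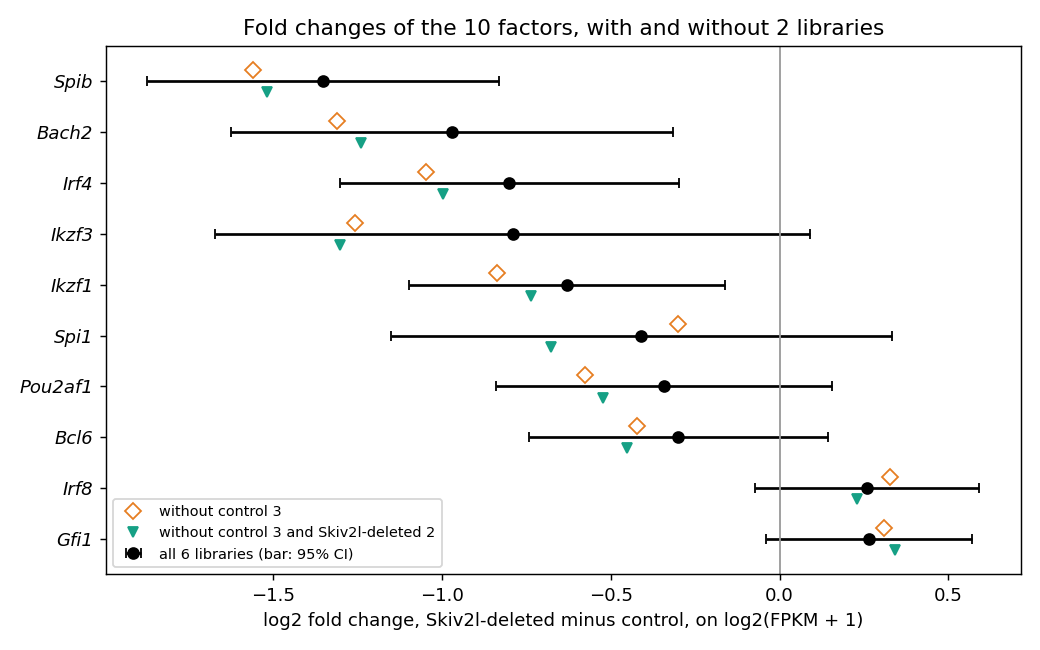
Log2 fold changes (Skiv2l-deleted minus control, on log2(FPKM + 1)) of the 10 genes. Black points with 95% intervals use all 6 libraries, open diamonds leave out control 3, and triangles leave out Skiv2l-deleted 2 and control 3. Spib has the lowest value with all libraries, −1.35, and Irf8 and Gfi1 lie above 0 in all 3 fits.

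Control 3 differed from controls 1 and 2 in 6 of these genes by more than 0.6 on the log2 scale, and always downward. The differences in log2(FPKM + 1) were −1.40 for Ikzf3, −1.02 for Bach2, −0.74 for Irf4, −0.70 for Pou2af1, −0.63 for Spib and −0.62 for Ikzf1. Of all tested genes, 0.739% had a lower difference than Ikzf3 and 7.42% a lower one than Ikzf1. Skiv2l-deleted 2 differed from Skiv2l-deleted 1 and 3 by −0.31 (Ikzf1) to 0.30 (Irf8) in 9 of the genes and by 1.125 in Spi1. Transcript length moved with these differences. Over tested genes whose longest transcript was above 6000 bases, the median difference of control 3 was −0.30, and it was 0.22 for those of 1000 to 2000 bases. The longest Bach2 transcript has 8882 bases and that of Ikzf3 4607, but those of Spib (2788) and Pou2af1 (2548) belong to a class whose median was 0.12. The part of length, of myeloid RNA or of other properties of control 3 in these values was not tested.

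**Figure D4:**
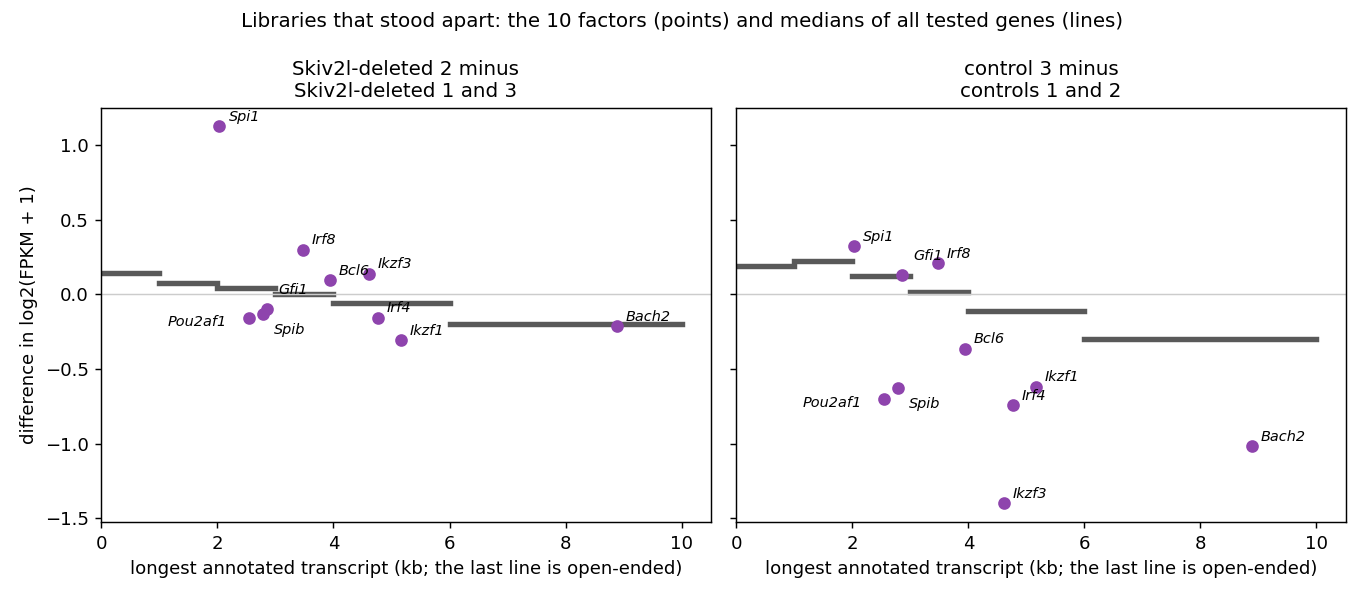
Difference in log2(FPKM + 1) of Skiv2l-deleted 2 from Skiv2l-deleted 1 and 3 (left) and of control 3 from controls 1 and 2 (right), against the length of the longest annotated transcript. Points are the 10 genes and grey lines the medians of all tested genes by length class. In control 3 the medians lie between 0.22 and −0.30 and are lowest for the longest transcripts, and 6 of the genes lie at −0.62 or lower.

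The order of the 10 genes by mean level differed between the groups in places. In Skiv2l-deleted cells it ran Pou2af1 (372 FPKM), Spib (139), Ikzf1 (118), Irf8 (98.9), Irf4 (73.2), Bach2 (41.7), Ikzf3 (28.2), Spi1 (27.5), Gfi1 (20.9) and Bcl6 (5.61 FPKM). Neighbours whose libraries overlapped there were Spib and Ikzf1, Ikzf1 and Irf8, Ikzf3 and Spi1, and Spi1 and Gfi1. In control cells the order was Pou2af1 (481 FPKM), Spib (357.5), Ikzf1 (187), Irf4 (131.5), Bach2 (86.8), Irf8 (82.0), Ikzf3 (54.2), Spi1 (34.5), Gfi1 (17.25) and Bcl6 (7.19 FPKM). Overlapping neighbours in controls were Pou2af1 and Spib, Ikzf1 and Irf4, Irf4 and Bach2, Bach2 and Irf8, and Ikzf3 and Spi1. By mean, Irf8 thus ranked above Irf4 and Bach2 in Skiv2l-deleted cells and below both in controls.

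Over the 6 libraries, the genes most like Spib in log2(FPKM + 1) were Rbmx2 (Pearson r = 0.997), 4833439L19Rik (0.997) and Plekha2 (0.996), among 9859 genes with a mean of at least 5 FPKM. Plekha2 had 143, 154 and 166 FPKM in Skiv2l-deleted libraries and 241.5, 232.5 and 192 FPKM in controls. With 6 points that share libraries and depth, 146 of those genes had an r above 0.95.

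Relatives and partners of the 10 factors were counted from lists written with earlier results of these data known. Of 39 tested members of 7 such lists, 5 were called higher and 2 lower, with a median log2 fold change of 0.10. Over all genes tested 4.97% were called higher and 3.87% lower. In the ETS family, 2 of 14 tested genes rose and 1 fell. Erg, an ETS factor of early progenitors, rose to 140 ± 29.8 FPKM in Skiv2l-deleted cells, against 45.75 ± 14.7 FPKM in controls (SD, n = 3). Etv6, a repressor of the same family, rose by 0.80 and Ets2 fell by 0.98 on the log2 scale. Erg and Etv6 lost their calls without Skiv2l-deleted 1 or 3 (highest limma adjusted p = 0.0672), and Ets2 without either of those or without control 1 or 2 (highest 0.091).

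Of the other IRF genes, 0 of the 6 tested (Irf1, Irf2, Irf3, Irf5, Irf7 and Irf9) were called by limma in either direction. Irf7, a gene of the interferon response, stood at 14.98, 22.03 and 18.5 FPKM in Skiv2l-deleted libraries and at 10.4, 14.2 and 9.38 FPKM in controls (limma adjusted p = 0.0825). Ikzf5 was the only other Ikaros family gene tested and was not called, and Ikzf2 and Ikzf4 stayed under the filter. Among BACH partners, Bach1, the sister gene of Bach2, rose to 9.58 ± 0.86 FPKM in Skiv2l-deleted cells, against 5.55 ± 1.13 FPKM in controls (limma adjusted p = 0.0465), and Nfe2l1 rose by 0.50. Bach1 was called without control 3 and in none of the other 5 omissions of 1 library (highest limma adjusted p = 0.182), and Nfe2l1 in none of the 6 (0.189). Of 6 BCL6 corepressor genes 1, Mta3, rose (0.60), and it kept its call without control 3 only (highest limma adjusted p = 0.169). The octamer-binding partners of POU2AF1, Pou2f1 and Pou2f2, were not called.

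Gfi1b, the paralog of Gfi1 that acts in red cell and platelet precursors, stood at 1.75, 3.42 and 1.95 FPKM in Skiv2l-deleted libraries, against 8.48, 8.40 and 9.09 FPKM in controls. The groups were far apart, with a log2 fold change of −1.55 ± 0.20 (SE, limma adjusted p = 0.00923), and the call held in each of 6 omissions of 1 library. The log2 values of Gfi1b and Gfi1 thus had opposite signs, although Gfi1 was not called. Of 8 red cell markers, which summed to 9.13, 221 and 4.86 FPKM in Skiv2l-deleted libraries and 9.29, 9.12 and 16.1 FPKM in controls, 0 of 5 tested were called by limma. Kdm1a, Rcor1, Hdac1 and Hdac2, which encode the corepressors that GFI1 proteins recruit, were not called.

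Genes cited as targets of these factors were counted as well. For these lists and those below, the share over all genes tested was 4.97% called higher and 3.87% lower. Of 16 tested genes cited as bound or driven by IRF4, IRF8, PU.1 or SPI-B, which include Ikzf1 and Ikzf3, 5 fell and 0 rose, with a median log2 fold change of −0.69. Ciita, the master activator of MHC class II genes, stood at 0.843, 0.939 and 1.075 FPKM in Skiv2l-deleted libraries, against 9.40, 9.16 and 3.77 FPKM in controls. Its log2 fold change was −2.03 ± 0.31 (SE, limma adjusted p = 0.0131), and it was again the third control that lay nearest to the Skiv2l-deleted libraries. Syk, the kinase downstream of the pre-B receptor, fell by 0.82, the inhibitory receptor gene Cd22 by 0.75, Cd74, the class II invariant chain gene, by 1.58 and Igkc, the kappa constant gene, by 1.95. Igkc was called in each omission of 1 library. Ciita lost its call without control 1 or either of Skiv2l-deleted 1 and 3 (highest limma adjusted p = 0.063), Syk without control 1 or 2 or either of those (0.108), Cd22 in every omission but that of control 3 (0.106), and Cd74 in every omission but that of Skiv2l-deleted 2 (0.123). Blnk, Btk, Cd79b, Il7r, Ptprc and Cxcr4 were among the 11 not called.

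Of 10 genes cited as repressed by Ikaros or Aiolos, 7 rose and 0 fell, with a median of 1.28: Igll1, Vpreb1, Vpreb2, Dntt, Kit, Flt3 and Ccnd2. Igll1, Vpreb1, Dntt and Kit were also counted among the pro-B markers, and Ccnd2 is also in the BACH2 or BCL6 list. The lists are thus not separate results. Vpreb1, a surrogate light chain gene, stood at 803, 762 and 1008 FPKM in Skiv2l-deleted libraries and at 341, 249.5 and 492 FPKM in controls. Ccnd3, the cyclin gene of large pre-B cells, was at 442, 333 and 495 FPKM in Skiv2l-deleted libraries, against 562, 655 and 599 FPKM in controls, and was not called (log2 fold change −0.53, limma adjusted p = 0.0961). All 7 lost their calls without Skiv2l-deleted 1, and each lost it in 2 to 5 of the 6 omissions of 1 library. The highest limma adjusted p over those omissions was 0.0618 for Igll1, 0.0728 for Dntt, 0.0706 for Vpreb2, 0.107 for Vpreb1, 0.142 for Kit, 0.155 for Flt3 and 0.114 for Ccnd2. Without Skiv2l-deleted 2 and control 3 together, 6 of the 7 were called, and Flt3 was not (limma adjusted p = 0.0563). Control 3 had the highest Dntt, Kit, Flt3, Igll1, Vpreb1 and Vpreb2 of the 3 controls.

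Of 8 tested genes cited as repressed by BACH2 or BCL6, Trp53 and Ccnd2 rose and Bcl2l1 fell (by 0.82, lost in 4 of the 6 omissions, highest limma adjusted p = 0.086). Trp53, the gene of the p53 tumour suppressor, stood at 145, 132 and 139 FPKM in Skiv2l-deleted libraries, against 97.9, 96.4 and 99.6 FPKM in controls (log2 fold change 0.50 ± 0.09 SE, limma adjusted p = 0.0227). It lost its call in every omission of 1 library except that of control 3 (highest limma adjusted p = 0.121). Prdm1, the plasma cell regulator that BACH2 and BCL6 repress, stayed under 1 FPKM in all 6 libraries. Irf4 and Pou2af1 are also expressed in plasma cells, and 7 plasma cell markers summed to 145, 164 and 158 FPKM in Skiv2l-deleted libraries and to 452, 425 and 607 FPKM in controls. Of the 5 tested, 3 were called lower, Igha, Jchain and Sdc1. Igha, the IgA constant gene, had 0.302, 0 and 0.0845 FPKM in Skiv2l-deleted libraries, against 216, 164 and 380 FPKM in controls (limma adjusted p = 0.000202). Jchain, which joins IgA and IgM units, had 0, 0.233 and 0.0821 FPKM in Skiv2l-deleted libraries, against 44.5, 36.9 and 75.2 FPKM in controls (limma adjusted p = 0.000568). Igha and Jchain passed the filter through the controls alone, so their calls rest on the libraries in which they were high. Each could be tested in only 3 of the 6 omissions of a library, and kept its call there. Both were near 0 in every Skiv2l-deleted library, where Slamf7 and Xbp1, neither of them called, made up most of the sum. The part of these transcripts in the Irf4 and Pou2af1 values was not tested. Control 3 had the highest such sum and the lowest Irf4 and Pou2af1 of the controls. Of a list of 7 genes of activated B and plasma cells, Jchain and Sdc1 fell and Mzb1 rose. Sdc1 lost its call in 4 of the 6 omissions of a library (highest limma adjusted p = 0.0744). Mzb1 had a limma adjusted p that rounds to 0.05, and its call held in 1 omission, that of control 3 (highest 0.192). The 8 mature B cell markers summed to 200.5, 256 and 185 FPKM in Skiv2l-deleted libraries and to 256, 256 and 254 FPKM in controls, with 3 of 7 tested called lower, Fcer2a, Ms4a1 and Ccr7. Ms4a1 lost its call in 5 of the 6 omissions of a library and Ccr7 in 3 (highest limma adjusted p = 0.144 and 0.0791). Fcer2a also passed the filter through the controls alone, at 2.16, 1.56 and 2.31 FPKM there. It could be tested in only 3 omissions, and kept its call in them. The 10 markers of T and NK cells summed to 24.1, 45.1 and 14.1 FPKM in Skiv2l-deleted libraries and to 5.79, 7.35 and 18.8 FPKM in controls. Of these markers, 7 stayed under 1 FPKM in all 6 libraries, and Nkg7 and Klrb1c made up most of the sum in each. Those 2 were the only ones tested, and 1, Klrb1c, was called higher.

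**Figure D5:**
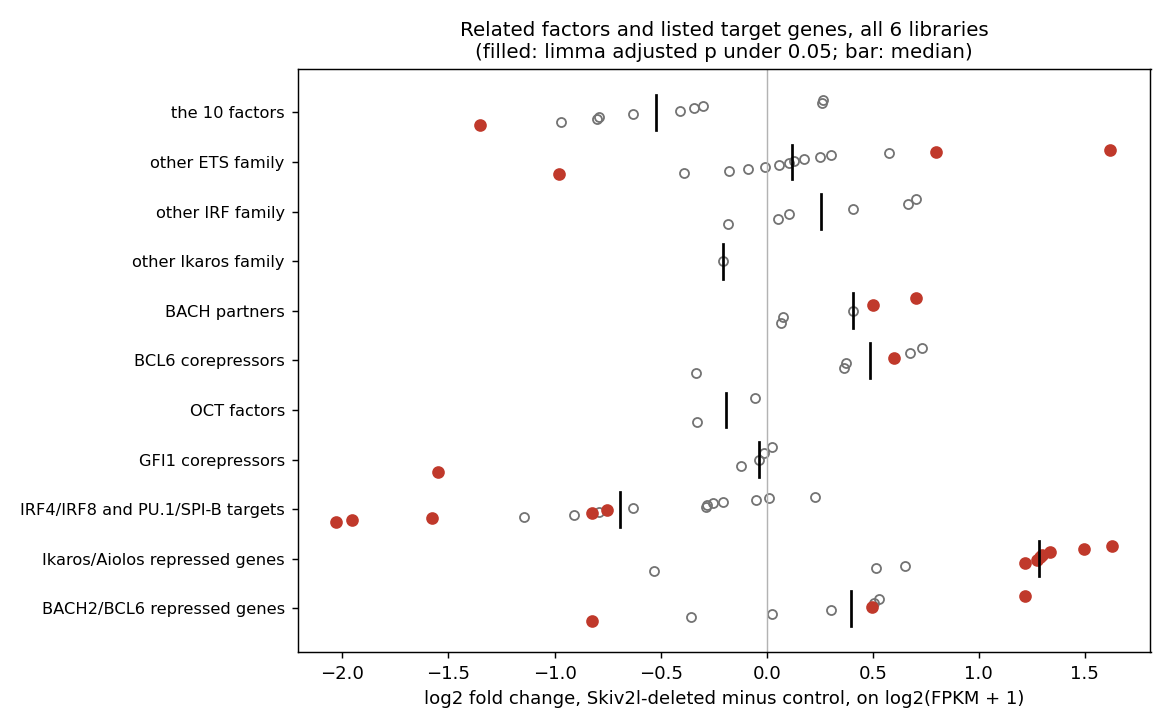
Log2 fold changes (Skiv2l-deleted minus control) of tested genes in the lists, all 6 libraries. Each point is a gene, filled where the limma adjusted p was under 0.05, and the bar is the median of the list. The median of the 10 factors is −0.52, that of genes cited as repressed by Ikaros or Aiolos 1.28.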

How the data were processed

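Pro-B cells were sorted by FACS from 3 mice of each genotype, per the series' design text, and strand-specific mRNA libraries were made, per the labels' protocols. Each library has 1 table in which the authors deposited FPKM, TPM and coverage by gene, as headers name them. The submitters' processing notes name the build GRCm38. Aligner, quantifier and strand setting: not given in the sources used here.

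Repeated identifiers (7 to 9 per table) were summed. Aligned bases were taken as the ratio of deposited coverage to FPKM in single-transcript genes. The tables hold no read counts. limma 3.58.1 in R 4.3.3 (eBayes with trend) used log2(FPKM + 1) and kept a gene if 3 or more libraries reached 1 FPKM (13539 genes), with genotype as the only term, with Benjamini-Hochberg adjustment over all of them and calls under 0.05. The scale understates changes of low genes. Single genes had an exact two-sided permutation test (scipy 1.17.1). The fit was tested on simulated data first. Transcript lengths come from GENCODE M21. A value listed at 0 does not show absence. Alternatives covered the filter, pseudocount, TPM, scaling, a replicate block and leaving out libraries.

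The 10 genes, the other lists and the alternatives were chosen with earlier results of these data known. The text names all 10, the called genes of each list, and the 3 genes most like a called member. Nothing states whether numbers pair the mice. P-values measure the spread between these libraries, 1 per mouse.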

Additional observations from a re-analysis of the deposited data

How the results depend on the processing

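The direction of all 10 genes was kept in each of the 18 alternatives. In some of these the log2 fold change of a gene cannot move, so its direction was fixed in advance. They are no filter, a filter at 5 FPKM, eBayes without trend, the replicate block and the added term. Spib ranged from −1.56 to −1.21 on the log2 scale (limma adjusted p from 0.006 to 0.0737). It kept its value of −1.35 but not its call with no expression filter (limma adjusted p = 0.065). When 1 library was left out, Spib ranged from −1.56 to −1.21, Irf4 from −1.05 to −0.67, Ikzf1 from −0.84 to −0.49, Ikzf3 from −1.26 to −0.51, Bach2 from −1.31 to −0.78 and Pou2af1 from −0.58 to −0.22, the strongest in each case without control 3. Without Skiv2l-deleted 2 and control 3 the calls gained were Spi1 (−0.68), Irf4 (−0.995), Ikzf1 (−0.73), Ikzf3 (−1.30), Bach2 (−1.24) and Pou2af1 (−0.52). A term for these 2 libraries, chosen after seeing the data, left the values of Irf4 (−0.80), Ikzf1 (−0.63) and Bach2 (−0.97) and called them, so that 4 of the 10 were called lower.

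Counts moved more. Members called lower were 1 as reported, 0 with no filter, 0 to 6 with 1 library left out and 7 without Skiv2l-deleted 2 and control 3. Over all genes, 1197 were called as reported, 512 with no filter, 179 to 1749 with 1 library left out, 1683 without Skiv2l-deleted 2 and control 3 and 2620 with the added term. Related genes called lower were 2 as reported, 1 with no filter, 1 to 3 with 1 library left out and 4 with the term. Related genes called higher were 5 as reported, 2 with no filter, with TPM or with FPKM rescaled without immunoglobulin and T cell receptor segments, 3 with quantile normalization or median scaling, 0 to 5 with 1 library left out, 9 without Skiv2l-deleted 2 and control 3, and 8 with the term. The cause was not tested. Fewer libraries or more genes tested are part of these settings.

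The titles number the mice, and nothing states that the numbers pair them, so they were not taken as pairs. Deviations from the group mean had r = 0.09, −0.43 and −0.35 between same-numbered mice. The highest r, 0.557, was between Skiv2l-deleted 2 and control 3, the libraries that stood apart. As those differ in number, the values cannot decide whether the mice were paired. With a replicate block, 365 genes, 0 members lower (Spib −1.35, limma adjusted p = 0.0618), 1 related gene lower and 1 higher were called. No count test was possible, since the tables give no read counts.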
